A study of Homo sapiens with 6 samples.

Results

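Small nucleolar RNA host genes (SNHGs) were taken here as the genes whose symbol is SNHG followed by a number, together with GAS5 and ZFAS1. The rule uses names only and no measured value. It found 30 of the 60617 gene identifiers in the count table, and 24 of the 30 had enough counts to be tested. The label was checked against the GENCODE release 29 annotation of GRCh38, in which 28 of the 30 genes hold an annotated small nucleolar RNA (snoRNA) or Cajal body RNA on their own strand. The exceptions were GAS5 and SNHG27, and GAS5 is nevertheless a well known host of C/D box snoRNAs.

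A host gene is transcribed into a spliced RNA, and snoRNAs are cut out of its introns. C/D box snoRNAs guide 2′-O-methylation of ribosomal and other RNAs, H/ACA box snoRNAs guide pseudouridylation, and related guide RNAs act in Cajal bodies. The spliced remainder often has no long open reading frame and is a known target of nonsense-mediated decay, in which ribosomes must first engage the RNA. Several host genes, GAS5 among them, belong to the class with a terminal oligopyrimidine (TOP) start, a C followed by a run of pyrimidines at the first base of the RNA, which is best known from the mRNAs of ribosomal proteins.

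The study used A549 cells, which derive from a human lung carcinoma, as wild-type cells (WT) and as cells with a knockout of YTHDF1 (KO), with 3 libraries in each group and no treatment named for either. YTHDF1 is a cytoplasmic protein that binds N6-methyladenosine in mRNA and is known for its link to translation. The labels call the libraries biological replicates, and they do not say whether the KO libraries came from 1 clone or from separate cultures, so the p-values measure the spread between these libraries only. YTHDF1 RNA (chromosome 20, 63195429 to 63216234, minus strand) was at 98.0, 104 and 96.4 CPM (counts scaled to a common library total) in the WT libraries and at 48.6, 48.6 and 47.1 CPM in the KO libraries. It fell by 1.05 on the log2 scale (SE 0.0526, edgeR adjusted p = 7.84e-18), and RNA of the gene was still present in every KO library.

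The libraries held 27238817 to 40675628 counts, so that 3 counts corresponded to 0.0735 to 0.111 CPM. All 13 markers listed for this kind of epithelial line were tested, with a summed level of 13800 to 14600 CPM in WT and 12700 to 13300 CPM in KO. Of the alveolar type 2 markers 1 of 5 was tested, SFTPA1, SFTPB, SFTPC and NKX2-1 were under 1 CPM, and the sum was 1.83 to 2.42 CPM in WT and 1.23 to 1.28 CPM in KO. None of 5 immune and none of 3 endothelial markers had enough counts to be tested, with CD3E at 0 in every library. Of 5 fibroblast markers 4 were tested, with a sum of 31.0 to 36.5 CPM in WT and 43.8 to 47.5 CPM in KO, 2 of them higher and 2 lower in the test. Mitochondrially encoded mRNAs took 5.76% to 5.92% of the counts in WT and 3.72% to 3.98% in KO. In bulk RNA, fewer cells that express a gene and less of its RNA per cell cannot be told apart.

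The RNA starts of these genes are shown first, since the TOP start is what many of them share. The lines give the first 25 bases, 5′ to 3′, of a GENCODE 29 transcript (GRCh38) of 6 host genes that were lower in KO and then of 3 that were higher. Each transcript was picked because it begins with the run. In all of these genes except SNHG19, most annotated transcripts begin otherwise. The lower genes SNHG17, SNHG30 and SNHG7 have no GENCODE transcript with such a start and are not shown. Also not shown are the lower gene SNHG8 and the higher gene SNHG6, which do have one. Of the 5 annotated transcripts of SNHG6, 3 begin with the run. Capitals mark the C and the pyrimidines that follow it without a break.
SNHG5: CTTTTacgtcggccttcgcgagcgt
SNHG19: CTTTTCggggtcgagtccgaggggg
SNHG29: CTTTTCattcccgttgttatggagg
SNHG3: CCTTTTTggagacagattcgcagtg
SNHG4: CCTTTCCCCTCCggcctctgccggt
GAS5: CTTTTCgaggtaggagtcgactcct
SNHG16: CTTTTCgaggtcggccgcgtggctg
ZFAS1: CTTTCgcgtctgcggtgcccggagt
SNHG12: CCTTTCTCCCCgccgcattcccggt

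These stretches lie at chr6:85678709-85678733 on the minus strand for SNHG5, chr16:2155334-2155358 on the minus strand for SNHG19 and chr17:16439037-16439061 on the plus strand for SNHG29. Those of SNHG3 and SNHG4 lie on the plus strand at chr1:28506043-28506067 and chr5:139274102-139274126, and that of GAS5 on the minus strand at chr1:173867965-173867989. Those of SNHG16 and ZFAS1 lie on the plus strand at chr17:76557769-76557793 and chr20:49278642-49278666, and that of SNHG12 on the minus strand at chr1:28581849-28581873. SNHG14, whose RNA differed most, is shown by contrast from RefSeq (GRCh38.p14, chr15:24823593-24823637, plus strand) with 15 bases before its annotated start and 30 from it on. That start lies far upstream of the GENCODE 29 span of the gene, next to the annotated start of the gene SNRPN. The nearest run of this kind, in capitals, begins 8 bases upstream of the start. No GENCODE transcript of SNHG14 begins with such a run, but its RefSeq window counts among those with a run near the start given below.
SNHG14: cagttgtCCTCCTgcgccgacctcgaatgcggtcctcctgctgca

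Among all 30 host genes, 15 had at least 1 GENCODE transcript that begins with C and at least 4 further bases that are each C or T, read on the transcribed strand. The share was 14.6% over all genes tested with a transcript sequence (2657 of 18246), and 83.5% of 79 cytosolic ribosomal protein genes. A gene with many transcripts has more chances to hold such a start: 6 of the 29 GAS5 transcripts had it. In the RefSeq promoter windows, which 26 host genes have, a C with at least 5 further pyrimidines beginning within 10 bases of the annotated start was present in 12 (46.2%). That run was present in 20.8% of all 35116 promoter windows, and in 88.9% of the 63 ribosomal protein genes with a window. The host and ribosomal protein shares are per gene, where any window with the run counts, and the share over all promoters is per window. Some RefSeq starts lie upstream of the GENCODE span of the gene, among them those of SNHG14, SNHG3 and GAS5. Those of SNHG14 and SNHG3 lie at or beside the annotated starts of SNRPN and RCC1. A match describes these letters and shows no use of the start in these cells.

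Of the 24 host genes tested, 16 (66.7%) differed between KO and WT in edgeR's quasi-likelihood test at an adjusted p below 0.05, beside 53.5% of all 18505 genes tested. There were 11 lower in KO (45.8%, beside 26.3% of all genes) and 5 higher (20.8%, beside 27.2%), while 8 did not pass. The same 11 and 5 genes were those whose 3 KO libraries all lay below or all above the 3 WT libraries (5 above WT beside 29.8% of all genes, 11 below WT beside 29.1%, and 66.7% in all beside 58.9%). With a fold of 1.5 built into the test, 3 host genes passed (12.5%, beside 14.0% of all genes), all of them lower, where the background was 5.47%. The median log2 fold change (KO minus WT) over the 24 was -0.17, beside 0.001 over all genes, whose middle range between the quartiles was -0.34 to 0.38. It was -0.1 without WT replicate 1 and -0.08 without WT replicate 2. The 17 host genes that share less than 20% of their exons with other genes had a median of -0.43, with 10 lower and 2 higher.

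**Figure D1:**
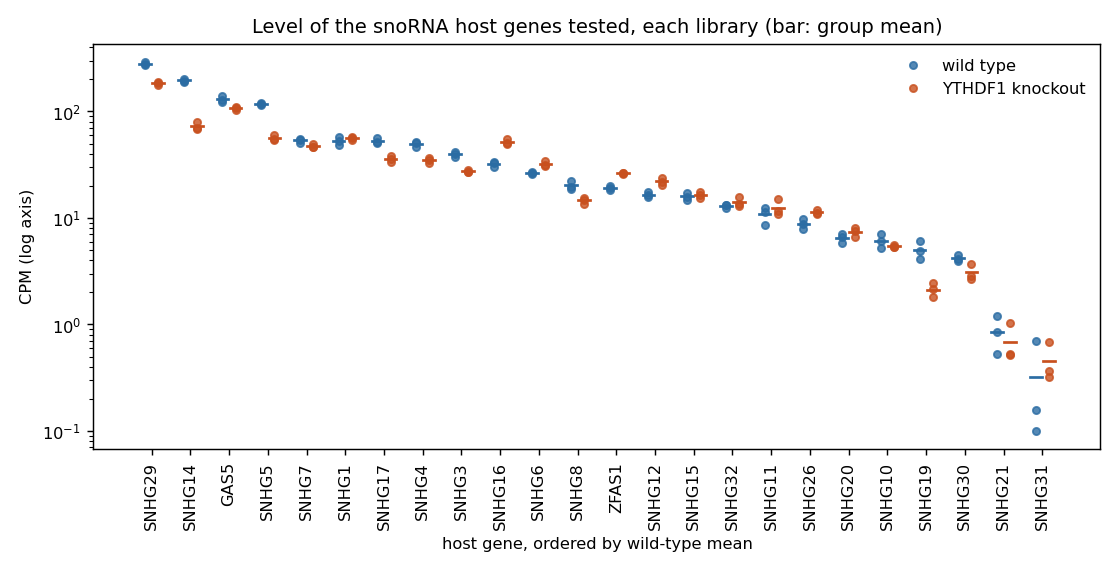
Level of each of the 24 tested host genes in every library, as CPM on a log axis, with genes ordered by their WT mean. Points are single libraries of the 2 groups, 3 in each. SNHG29 and SNHG14 stand highest in WT, at 281 and 196 CPM on average, and in SNHG14 the KO points lie near 72.6 CPM.

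The 30 genes together took 0.114%, 0.114% and 0.117% of the counts in the WT libraries and 0.0851%, 0.0856% and 0.0844% in the KO libraries. Every KO library was lower than every WT library, and the counting error was far smaller than the gap: the 95% Wilson intervals ran from 0.113% to 0.118% over the WT libraries and from 0.0835% to 0.0865% over the KO libraries. The mean was 0.115% ± 0.00173 (SD, n = 3) in WT and 0.085% ± 0.000603 (SD, n = 3) in KO, a difference of -0.0299 percentage points. With the mitochondrially encoded genes left out of the totals the difference was larger in size, at -0.0351 percentage points. Those genes took more of the counts in WT, so leaving them out raises the WT share more. SNHG29 and SNHG14 alone took 40.8% to 41.6% of the host gene counts in WT and 29.9% to 31.0% in KO.

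Levels of different genes can be compared only per length, here as the mean CPM per kilobase of annotated exon. On that scale the highest levels in WT were those of SNHG29 at 74.8, SNHG5 at 41.7 and GAS5 at 36.1. In KO, SNHG29 was again the highest at 49.0, followed by GAS5 at 29.5, SNHG6 at 25.9 and SNHG5 at 20.2. SNHG14 has 43324 bases of annotated exon and ranked low per length, at 4.52 in WT and 1.67 in KO. The lowest tested gene was SNHG31, at 0.152 in WT and 0.216 in KO.

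SNHG14, SNHG5 and SNHG19 were the 3 host genes that fell by more than 1 on the log2 scale. SNHG14 (chromosome 15, 24978583 to 25419462, plus strand) is the long imprinted transcript of the Prader-Willi and Angelman region, host of the SNORD115 and SNORD116 clusters and antisense to UBE3A. It was at 203, 190 and 194 CPM in WT and at 68.1, 70.7 and 78.9 CPM in KO. All 3 KO libraries lay far below the lowest WT library, and the gene fell by 1.43 (SE 0.0514, edgeR adjusted p = 7.42e-22) from 196 ± 6.43 to 72.6 ± 5.63 CPM (SD, n = 3). GENCODE places 84 of the 137 snoRNA loci found inside host genes within it. SNRPN, the protein-coding gene that shares 141 exon bases with it on the same strand, fell by 0.45 (SE 0.186, adjusted p = 0.039) from 4.0 to 2.94 CPM. UBE3A, on the opposite strand with 198 shared bases, fell by 0.18 (SE 0.0553, adjusted p = 0.00724) from 69.1 to 61.2 CPM.

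SNHG5 (chromosome 6, 85660950 to 85678748, minus strand), the host of the SNORD50 snoRNAs, was at 119, 117 and 115 CPM in WT and at 54.8, 60.6 and 54.3 CPM in KO. The groups were well apart, and it fell by 1.05 (SE 0.0523, adjusted p = 6.16e-18) from 117 ± 2.19 to 56.6 ± 3.53 CPM (SD, n = 3). SNHG19 (chromosome 16, 2154797 to 2155358, minus strand), host of SNORD60, is a short gene with few counts. It was at 6.12, 4.08 and 4.85 CPM in WT and at 1.8, 2.43 and 2.16 CPM in KO, with no overlap between the groups. It fell by 1.24 (SE 0.197, adjusted p = 2.49e-06) from 5.02 ± 1.03 to 2.13 ± 0.317 CPM (SD, n = 3), and no other gene shares its exons.

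SNHG29, SNHG17, SNHG3, SNHG4 and SNHG8 formed the next step, with falls of 0.48 to 0.61 on the log2 scale. SNHG29 (chromosome 17, 16438822 to 16478678, plus strand), host of the SNORD49 pair and SNORD65, was at 274, 281 and 289 CPM in WT and at 184, 189 and 179 CPM in KO. Its groups did not overlap, and it fell by 0.61 (SE 0.0425, adjusted p = 4.29e-14) from 281 ± 7.17 to 184 ± 5.09 CPM (SD, n = 3). The other 4 genes host H/ACA snoRNAs of the SNORA71, SNORA73, SNORA74 and SNORA24 families.

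SNHG17 (chromosome 20, 38420588 to 38435353, minus strand) was at 50.7, 55.8 and 52.2 CPM in WT and at 38.3, 35.6 and 33.9 CPM in KO, and fell by 0.56 (SE 0.0641, adjusted p = 4.97e-09). SNHG3 (chromosome 1, 28505980 to 28510892, plus strand) was at 37.5, 39.9 and 41.7 CPM in WT and at 27.2, 26.8 and 28.5 CPM in KO, and fell by 0.53 (SE 0.0688, adjusted p = 6.2e-08). SNHG3 lies next to RCC1, a regulator of the Ran GTPase cycle, and shares 242 exon bases (5.9% of its own) with it on the same strand. RCC1 fell by 0.29 (SE 0.0538, adjusted p = 2.35e-05) from 77.5 to 63.3 CPM.

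SNHG4 (chromosome 5, 139274102 to 139284899, plus strand) was at 46.6, 52.2 and 50.6 CPM in WT and at 35.2, 32.9 and 36.2 CPM in KO, and fell by 0.52 (SE 0.0649, adjusted p = 3.13e-08). It shares 14.0% of its exon bases with an annotated form of MATR3, a nuclear matrix RNA-binding protein gene, so part of its reads may be assigned uncertainly. SNHG8 (chromosome 4, 118278709 to 118279823, plus strand) was at 19.7, 18.8 and 22.3 CPM in WT and at 14.8, 15.5 and 13.5 CPM in KO, and fell by 0.48 (SE 0.0917, adjusted p = 4e-05). In each of these 2 genes, the highest KO library was below the lowest WT library.

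GAS5, SNHG30 and SNHG7 were lower by less. GAS5 (chromosome 1, 173863900 to 173868882, minus strand) was named for its accumulation in growth-arrested cells, and its spliced RNA can bind the glucocorticoid receptor. It was at 124, 128 and 140 CPM in WT and at 108, 111 and 103 CPM in KO. The groups did not overlap, and it fell by 0.29 (SE 0.0494, adjusted p = 7.22e-06) from 131 ± 8.01 to 107 ± 3.57 CPM (SD, n = 3).

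SNHG7 (chromosome 9, 136721366 to 136728184, minus strand), host of SNORA17 snoRNAs, was at 54.3, 50.5 and 55.5 CPM in WT and at 49.7, 46.9 and 46.5 CPM in KO, and fell by 0.17 (SE 0.0595, adjusted p = 0.0181). The highest KO library was just under the lowest WT library. The call was lost when a library was left out, with an adjusted p of 0.0608 without WT replicate 1, 0.101 without WT replicate 3, 0.0743 without KO replicate 2 and 0.0794 without KO replicate 3. SNHG7 also shares 25.2% of its exons with DIPK1B on the opposite strand. SNHG30 (chromosome 17, 35568109 to 35574843, plus strand), host of SNORD7 and under 5 CPM on average, fell by 0.43 (SE 0.186, adjusted p = 0.0496) from 4.2 to 3.09 CPM. That call was at the threshold: the adjusted p was 0.118 in DESeq2 and 0.0543 in limma-voom. It was 0.0819 without WT replicate 1, 0.12 without WT replicate 2 and 0.0551 without WT replicate 3, and 0.124 without KO replicate 1 and 0.186 without KO replicate 2.

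The 5 host genes that were higher in KO rose by 0.29 to 0.7 on the log2 scale. SNHG16 (chromosome 17, 76557766 to 76565348, plus strand), host of the SNORD1 snoRNAs, rose most. It was at 30.1, 33.4 and 32.5 CPM in WT and at 55.1, 49.8 and 50.4 CPM in KO. Every KO library exceeded every WT library by a wide margin, and the gene was 1.62-fold higher (log2 fold change 0.7, SE 0.0653, adjusted p = 5.92e-11), from 32.0 ± 1.69 to 51.8 ± 2.9 CPM (SD, n = 3). A predicted gene on the opposite strand, AC015802.6, covers 30.6% of its exons and had 2 counts in all WT libraries and 20 in all KO libraries.

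ZFAS1 (chromosome 20, 49278178 to 49295738, plus strand) carries the SNORD12 snoRNAs and starts next to ZNFX1 on the opposite strand. It was at 19.0, 20.1 and 18.2 CPM in WT and at 26.1, 26.7 and 26.2 CPM in KO. Its KO libraries lay close together above WT, and it was 1.38-fold higher (log2 fold change 0.47, SE 0.0782, adjusted p = 5.43e-06), from 19.1 ± 0.99 to 26.3 ± 0.294 CPM (SD, n = 3). ZNFX1, which encodes a helicase-like sensor of viral RNA, shares 249 exon bases (11.1% of ZFAS1) with it. These bases lie upstream of the ZFAS1 start printed above. ZNFX1 went from 94.0, 96.0 and 99.5 CPM in WT to 842, 891 and 902 CPM in KO, a rise of 3.19 on the log2 scale (SE 0.0449, adjusted p = 1.18e-33). The library kit keeps the strand, but the sources used here do not say whether the counting used it. Without strand, reads of both genes over the shared bases cannot be told apart, and the part of ZNFX1 in the rise of ZFAS1 was not tested.

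SNHG12 (chromosome 1, 28578538 to 28583132, minus strand) hosts both H/ACA and C/D snoRNAs. It was at 17.6, 15.6 and 16.5 CPM in WT and at 21.6, 23.9 and 20.6 CPM in KO, and was 1.33-fold higher (log2 fold change 0.41, SE 0.0868, adjusted p = 0.000164). SNHG26 (chromosome 7, 22854178 to 22861579, plus strand), host of SNORD93, was at 8.76, 9.87 and 7.82 CPM in WT and at 12, 11.2 and 10.8 CPM in KO, and was 1.29-fold higher (log2 fold change 0.37, SE 0.115, adjusted p = 0.00654). These 2 were the risers with under 20% of their exons shared with another gene, and without WT replicate 3 SNHG26 had an adjusted p of 0.0551.

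SNHG6 (chromosome 8, 66921684 to 66926398, minus strand), host of SNORD87, was at 27, 26.2 and 26.1 CPM in WT and at 31.1, 34.3 and 31.6 CPM in KO. The groups did not overlap, and it was 1.22-fold higher (log2 fold change 0.29, SE 0.0714, adjusted p = 0.000788). MCMDC2, on the opposite strand, shares 29.3% of the exons of SNHG6. It had 171 counts over all WT and 193 over all KO libraries, beside 2773 and 3691 for SNHG6. The part of MCMDC2 in the rise of SNHG6 was not tested.

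**Figure D2:**
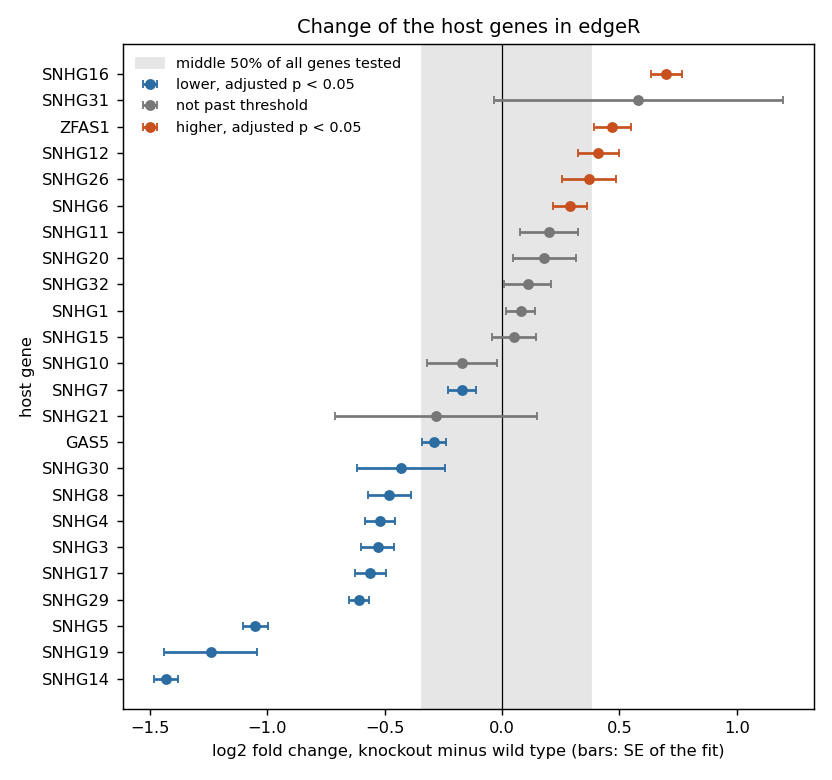
Log2 fold change of each tested host gene (KO minus WT), with bars of 1 SE of the fit and a grey band for the middle 50% of all genes tested. The genes run from SNHG14 at -1.43 to SNHG16 at 0.7, and 9 of the 24 have a value of at least 0.5 in size, among them SNHG31, which did not pass the test.

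SNHG1, SNHG15, SNHG32, SNHG20, SNHG11, SNHG10, SNHG21 and SNHG31 did not pass the test. SNHG1 (chromosome 11, 62851988 to 62855914, minus strand), host of the SNORD22 and SNORD25 to SNORD30 group, was at 48.7, 53.1 and 58.1 CPM in WT and at 54.5, 56.1 and 58.2 CPM in KO. The groups overlapped, with a log2 fold change of 0.08 (SE 0.0618, adjusted p = 0.308). SNHG15, host of SNORA9, was at 15.9, 17.3 and 14.7 CPM in WT and at 16.5, 15.3 and 17.6 CPM in KO (log2 fold change 0.05, SE 0.0937, adjusted p = 0.676). SNHG32, the only host gene here that the annotation calls protein-coding, was at 13.3, 12.5 and 13.1 CPM in WT and at 13.4, 15.6 and 13.0 CPM in KO (log2 fold change 0.11, SE 0.1, adjusted p = 0.379).

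SNHG11, host of SNORA60 and SNORA71E, was at 12.3, 8.65 and 11.5 CPM in WT and at 15, 11 and 11.6 CPM in KO (log2 fold change 0.2, SE 0.124, adjusted p = 0.184). The Cajal body RNA hosts SNHG20 and SNHG10 also had overlapping groups. SNHG20 was at 6.65, 5.86 and 7.07 CPM in WT and at 7.62, 8.09 and 6.58 CPM in KO (log2 fold change 0.18, SE 0.135, adjusted p = 0.277). SNHG10 was at 7.02, 6.09 and 5.17 CPM in WT and at 5.54, 5.37 and 5.31 CPM in KO (log2 fold change -0.17, SE 0.148, adjusted p = 0.349). SNHG21 and SNHG31 were under 5 CPM. SNHG21 had a log2 fold change of -0.28 (SE 0.429, adjusted p = 0.62), and 72.9% of its exons are shared with another noncoding gene. SNHG31 had a log2 fold change of 0.58 (SE 0.616, adjusted p = 0.453) and passed only without WT replicate 2, at 1.78 with an adjusted p of 0.0497.

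The remaining 6 genes had too few counts to be tested. SNHG18 had 0 counts in all 6 libraries, which allows a level of up to 0.0735 to 0.111 CPM in a library. SNHG28 also had 0 counts, but all 2242 of its exon bases lie on the same strand within a second identifier that GENCODE alone names SNHG28, which had 64 counts over the WT and 112 over the KO libraries. Reads of these 2 identifiers cannot be told apart, so the 0 sets no upper limit. SNHG27 had 1 count, in a KO library. SNHG9 had 28 counts over the WT and 14 over the KO libraries, SNHG25 had 11 and 8, and SNHG22 had 20 and 4. No direction is given for these.

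The host genes were also grouped by the kind of guide RNA that the annotation places inside them, and the counts stand beside 27.2% higher and 26.3% lower over all genes. Of 11 tested hosts of C/D box snoRNAs alone, 4 were higher, 5 were lower and 2 did not pass, with a median log2 fold change of 0.08. Of 8 tested hosts of H/ACA box snoRNAs alone, 0 were higher, 5 were lower and 3 did not pass, with a median of -0.32. The 3 tested hosts of Cajal body RNAs did not pass. SNHG12, which holds both box kinds, was higher (0.41) and is in none of these classes. GAS5 is in none either, since the annotation places no snoRNA inside it, and it was lower (-0.29). As GAS5 is a known C/D host, the C/D counts and median leave out a lower gene. These classes are small, and the difference between them was not tested. By RNA start, the 13 tested genes with a GENCODE transcript that begins with the pyrimidine run counted 4 higher, 7 lower and 2 not past the threshold (median -0.29). The 11 without such a transcript counted 1 higher, 4 lower and 6 not past it (median -0.17). The RefSeq windows were read by another definition, a C with at least 5 further pyrimidines beginning within 10 bases of the start. By it SNHG5, GAS5 and ZFAS1 lack the run, while SNHG14, SNHG7 and SNHG29 have it upstream of the start. The order of the medians was then the other way, but the 2 definitions do not describe the same feature. The 11 tested genes whose window has the run counted 3 higher, 6 lower and 2 not past the threshold (median -0.17). The 11 whose window lacks it counted 1 higher, 5 lower and 5 not past it (median -0.28). Genes with the GENCODE start therefore stood on both sides, as the printed starts of SNHG5 and GAS5 against SNHG16 and ZFAS1 show.

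Few snoRNAs had counts of their own. GENCODE lists 142 snoRNA entries inside 28 host genes, of which 13 had any count and 4 were tested. Of the 142 entries, 50 share bases with an exon of their host, where reads of the snoRNA and of the host cannot be told apart. SNORD12C, in ZFAS1, had 12, 6 and 15 counts in WT and 19, 30 and 36 counts in KO. All KO libraries were above WT, and it rose by 1.25 on the log2 scale (SE 0.472, adjusted p = 0.0261). SNORD104 in SNHG25 (log2 fold change -1.01, SE 0.54, adjusted p = 0.118), SNORA71B in SNHG17 (0.09, adjusted p = 0.893) and SNORA73B in SNHG3 (-0.04, adjusted p = 0.95) did not pass. SNHG17 and SNHG3 were the lower hosts described above, and SNHG25 was not tested. All 4 lie outside the annotated exons of their hosts, so reads of the mature snoRNA and of unspliced host RNA cannot be told apart.

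Several host genes start within 2 kb of a gene on the opposite strand, and these neighbours did not all follow them. SNHG1 starts 188 bases from SLC3A2, the heavy chain of several amino acid transporters. SLC3A2 was at 421, 409 and 389 CPM in WT and at 668, 653 and 644 CPM in KO. Its groups were far apart, with a rise of 0.69 (SE 0.0406, adjusted p = 5.48e-16), beside 0.08 for SNHG1. SNHG10 starts 1369 bases from GLRX5, a mitochondrial iron-sulfur cluster protein gene, which fell by 0.65 (SE 0.0658, adjusted p = 3.46e-10) from 48.4 to 30.9 CPM. GLRX5 also covers 20.1% of the exons of SNHG10, whose own value was -0.17.

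SNHG19 and TRAF7, an E3 ubiquitin ligase gene whose start is 340 bases away, were both lower, with falls of 1.24 and 0.30 (for TRAF7, SE 0.0486, adjusted p = 2.85e-06). ZFAS1 and ZNFX1, whose annotated spans overlap with starts 248 bases apart, were both higher, at 0.47 and 3.19. Neither ZBTB37 beside GAS5 (-0.2, SE 0.0906, adjusted p = 0.0564) nor BARD1 beside SNHG31 (0.23, SE 0.111, adjusted p = 0.0802) passed. The difference between host and neighbour was not tested.

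**Figure D3:**
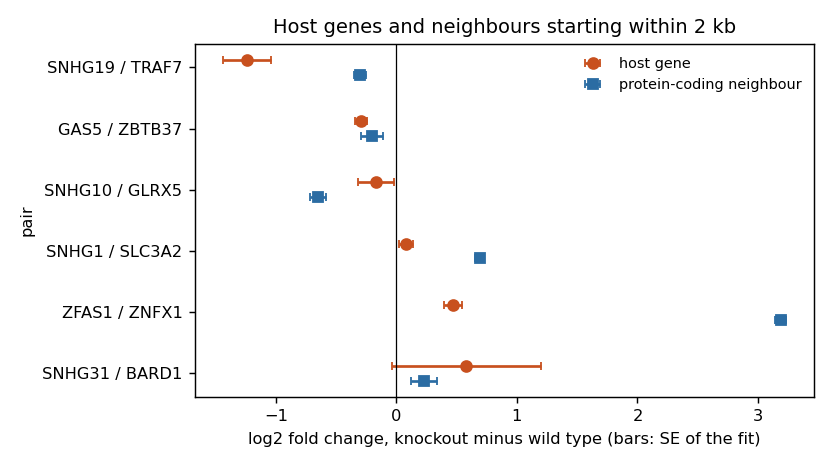
Log2 fold change (KO minus WT), with bars of 1 SE, of 6 tested host genes and of the gene on the opposite strand whose start lies within 2 kb. In the pair with ZNFX1 the host is at 0.47 and the neighbour at 3.19, and in the pair with SLC3A2 the host is at 0.08 and the neighbour at 0.69.

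The genes that make and use guide RNAs are given beside the hosts. Of 21 snoRNA-protein core and assembly genes, 11 were lower, 1 was higher and 9 did not pass, with a median log2 fold change of -0.15. Over all genes 53.5% were called, 26.3% lower and 27.2% higher. The share called in either direction was therefore near the background, but all of those called except 1 were lower. FBL, the methyltransferase of C/D particles, fell by 0.87 (SE 0.0468, adjusted p = 4.53e-17) from 262 ± 12.9 to 143 ± 7.04 CPM (SD, n = 3). The assembly ATPase RUVBL1 fell by 0.49 (adjusted p = 4.56e-09) and the nucleolar chaperone NOLC1 by 0.31 (adjusted p = 2.63e-07). The single riser was the assembly factor ZNHIT3, at 0.3 (adjusted p = 0.00207), named here after its value was seen.

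Of 27 further snoRNA hosts without an SNHG symbol, mostly protein-coding, 19 were lower, 5 were higher and 3 did not pass (median -0.21), beside 26.3% lower and 27.2% higher over all genes. NOP56 and DKC1 are counted both here and among the snoRNA-protein genes above. The elongation factors EEF2 and EEF1B2 fell by 1.36 (adjusted p = 2.75e-25) and 1.21 (adjusted p = 4.14e-22), and the ribosome-bound scaffold RACK1 by 0.97 (adjusted p = 1.62e-20). DANCR, a noncoding host chosen after its value was seen, was at 6.33, 7.16 and 7.82 CPM in WT and at 2.94, 2.45 and 2.83 CPM in KO, with a fall of 1.38 (SE 0.162, adjusted p = 8.37e-09). Among 18 long noncoding RNAs that hold no snoRNA, 7 were lower, 3 were higher and 8 did not pass (median -0.07). The share called in either direction is near the 53.5% over all genes, where 26.3% were lower and 27.2% higher. OIP5-AS1, a cytoplasmic noncoding RNA, fell by 0.74 (adjusted p = 7.96e-15), KCNQ1OT1, an imprinted antisense RNA, by 0.76 (adjusted p = 4.26e-07), and PVT1, the neighbour of MYC, rose by 0.43 (adjusted p = 1.66e-07).

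mRNAs known for a TOP start were lower almost throughout. Of 79 cytosolic ribosomal protein genes, 77 were lower, 0 were higher and 2 did not pass (median -0.56), beside 26.3% lower over all genes. RPS2 fell by 1.38 (adjusted p = 1.32e-23), RPL23 by 1.35 (adjusted p = 6.85e-23) and RPL4 by 1.15 (adjusted p = 1.61e-23). RPS2 starts 99 bases from SNHG9, one of the untested hosts. All 13 tested genes of a list of other TOP mRNAs were lower (median -0.93), of which the initiation factor EIF4B fell by 1.41 (adjusted p = 1.03e-24), EEF2 by 1.36 and EEF1A1 by 1.15 (adjusted p = 2.96e-24). EEF2, EEF1B2, RACK1 and TPT1 belong both to this list and to the hosts without an SNHG symbol, so the 2 counts are not separate. The 13 mitochondrially encoded mRNAs, which were listed as a sign of RNA quality, were also all lower (median -0.55), MT-CO3 by 1.45 (adjusted p = 1.13e-25), MT-ATP8 by 1.35 (adjusted p = 1.27e-22) and MT-ATP6 by 1.29 (adjusted p = 2.73e-24). With the mitochondrially encoded genes left out of the fit, all 24 tested host genes kept their direction and their call.

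Of 20 factors of nonsense-mediated decay, 7 were higher, 4 were lower and 9 did not pass (median 0.07), and the share called was near the 53.5% over all genes. The 5′ to 3′ exonuclease XRN1 rose by 1.16 (SE 0.0548, adjusted p = 1.3e-18) from 52.5 ± 1.05 to 117 ± 8.73 CPM (SD, n = 3), while PNRC2, an adaptor to decapping, and SMG5 rose by 0.29 (adjusted p = 1.26e-05) and 0.23 (adjusted p = 0.000112). Of 14 mRNAs known as substrates of the pathway, 7 were higher, 6 were lower and 1 did not pass (median 0.11), beside 27.2% higher and 26.3% lower over all genes. The stress genes ATF3, GABARAPL1 and GADD45A rose by 3.05 (adjusted p = 1.36e-20), 1.1 (adjusted p = 5.08e-17) and 0.87 (adjusted p = 2.95e-12), and each also responds to stress signals outside this pathway. In both lists the genes named are those of smallest adjusted p, and the lower genes are not named. SMG5 and UPF1 belong to both lists, so these counts are not separate.

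**Figure D4:**
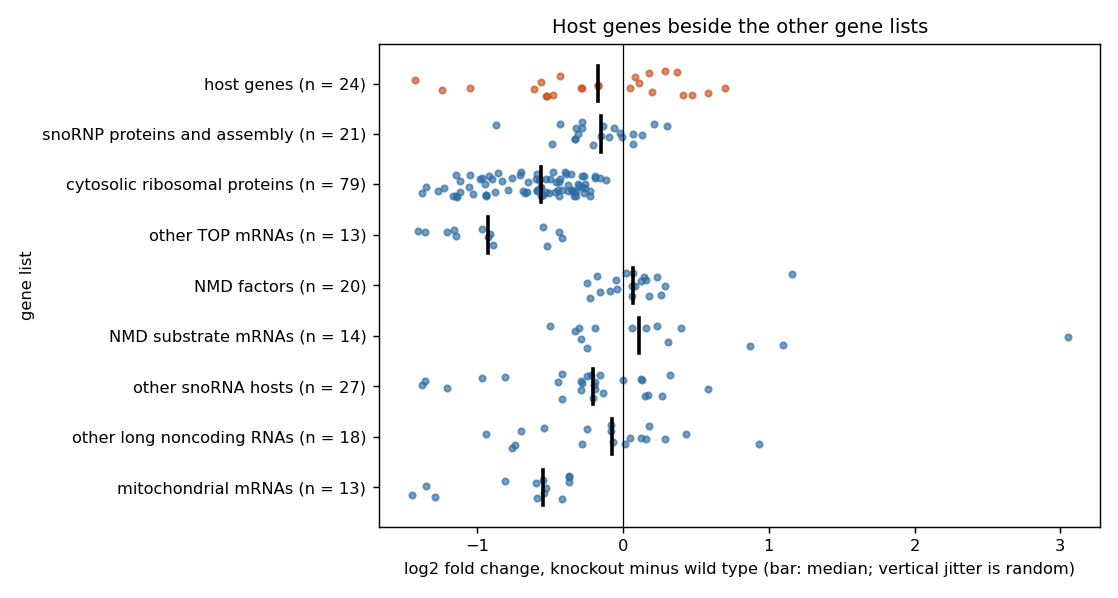
Log2 fold change (KO minus WT) of single genes, 1 point each, for the tested host genes and 8 gene lists, with a bar at each median. The medians run from -0.93 for the other TOP mRNAs to 0.11 for substrates of nonsense-mediated decay, and the host genes at -0.17 have points on both sides of 0.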

How the data were processed

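Total RNA of A549 cells was made into Illumina TruSeq stranded libraries, per the labels' protocols. The authors deposited raw counts per Ensembl gene, 1 column per library. The submitters' processing notes name Trim Galore 0.6.6, STAR 2.7.0d, featureCounts 2.0.1, edgeR 3.32.1 and GRCh38. The sources used here do not give the annotation, the strand setting or the treatment of multimapping reads.

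A symbol table named 42000 identifiers. GENCODE 29 named 16569 more and gave coordinates for 58542. It may differ from the annotation used for counting.

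Counts were fitted with edgeR 4.0.16 in R 4.3.3: filterByExpr, TMM scaling, genotype as the only term, 2-sided quasi-likelihood test, Benjamini-Hochberg adjustment over all 18505 genes, threshold 0.05. CPM use the TMM factors. SEs were derived from the F statistic. The script was tested on simulated data. Same-group libraries differed by more than sampling noise (chi-square per degree of freedom 4.38 to 6.46). Intervals and floors cover counting error only.

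Members and lists were chosen with earlier results of these data known. Named were YTHDF1, every host gene (in full from a mean of 5 CPM), the up to 3 genes of smallest adjusted p per list, and neighbours or overlapping genes. RefSeq promoter windows came from GRCh38.p14. Alternatives were DESeq2 1.42.0, limma-voom (limma 3.58.1), other scalings and filters, a replicate block, a built-in fold, a stricter threshold, leaving out each library, and other definitions of the pyrimidine start.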

Additional observations from a re-analysis of the deposited data

How the results depend on the processing

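With a fold of 1.5 built into the test, host genes counted 0 higher and 3 lower. On the same setting snoRNA-protein genes counted 0 higher and 1 lower, ribosomal protein genes 29 lower, decay factors 1 higher and 0 lower, decay substrates 3 higher and 0 lower, other hosts 0 higher and 5 lower, other noncoding RNAs 0 higher and 1 lower, and mitochondrial mRNAs 4 lower. Leaving mitochondrially encoded genes out of the table leaves 0 of the latter by construction, and moved the difference in the share of counts to -0.0351 percentage points. With upper-quartile scaling, 3 other hosts were higher, and SNHG15 had a log2 fold change of -0.01. That scaling moved the median of all genes to -0.058. Host genes with under 20% shared exons counted 2 higher, with a median of -0.43. The median over the host genes was -0.23 with upper-quartile scaling, and -0.24 to -0.08 when each library was left out. That median was also -0.23 in DESeq2, which had no filter on low counts and so took in host genes too low for the main fit. SNHG7 and SNHG10, in the middle of the order in the main fit, kept -0.17 in DESeq2. Leaving out libraries gave SNHG21 -0.69 to 0.01 and SNHG15 0.0 to 0.11, so neither has a direction. Across DESeq2, limma-voom, other scalings, other filters and the libraries left out, 4 to 6 host genes were higher and 9 to 11 lower. The share of host genes with a pyrimidine run was 23.1% with at least 6 pyrimidines, and 26.9% for a run of at least 4 exactly at the start, a definition added after seeing the data. The second SNHG28 identifier that only GENCODE names, also added after seeing the data, moved no count. The cause of these changes was not tested.

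Replicate numbers were added as a replicate block, which gave 5 higher and 10 lower host genes. SNHG30 was the only host gene to change its call, with an adjusted p of 0.0598. Same-numbered libraries did not deviate together: their correlations over 18505 genes were -0.026, -0.0143 and 0.00785, so the numbers do not show pairs. The 6 untested host genes and most snoRNAs had too few counts for a test, and the cause of the low counts was not tested.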
